A study of Bos taurus and Bos indicus with 3 samples.

Results

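Merged models are entries of the expression table to which a transcript assembler gave a single identifier and several gene names, because the transcripts of more than 1 annotated gene were placed in the same locus. They were chosen by a comma in the name column, on any chromosome but the mitochondrial one, without the model named for the MHC class I heavy chain HA1B, and with an FPKM above 0 in at least 1 library. The rule was met by 154 models, which is 1.01% of the 15286 models above 0 in any library and a small part of the 25968 models in the table. FPKM, the unit of every level below, counts sequenced fragments per kilobase of transcript, scaled for the depth of a library. The authors normalized these values to upper quartiles. Names are written here with a slash in place of the comma and without the cattle suffix of the protein database.

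The table compares white blood cells of 3 cattle breeds, the taurine dairy breeds Holstein and Jersey and the zebu breed Cholistani. Blood was pooled before the cells were isolated, from 40 Holstein, 7 Jersey and 45 Cholistani cows, and 1 library of polyadenylated RNA was made per breed. The sources used here give no treatment, time point or age for any group, and the cells of all groups went through lysis of red cells. The Cholistani RNA alone was stored and shipped in a dry matrix, and the Cholistani herd was kept in Pakistan while the other herds were in Wisconsin, so breed, herd and RNA storage cannot be told apart. With 1 library per breed there is no spread between replicates, and no test, p-value or standard error could be computed for any difference below.

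An assembler joins genes when reads or annotated exons bridge them. In mammalian genomes this is common where genes lie tail to head with little space between them, where recent duplicates stand in tandem, and where a small RNA lies inside an intron of a protein gene. Small nucleolar RNAs, which guide chemical modification of ribosomal RNA, and many microRNAs, which silence messenger RNAs, are cut out of the introns of such host genes. Where the names are those of different genes, the level of a merged model is a single value for all of them, and how much of it belongs to each gene cannot be told from the table. Mature small RNAs carry no poly(A) tail, so the value of a model that holds one gives no reading of the small RNA itself.

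The 154 models carried 325 names. Of the names, 107 were bare protein accessions, 102 were entry names of the protein database, 60 were gene symbols, 30 were small RNAs and 26 were LOC numbers. A LOC number is a placeholder used in place of a symbol. Of the LOC numbers, 11 were matched to RefSeq, some of them under a gene symbol. A pair of names stood on 143 models, 3 names stood on 7, 4 names stood on 3 and 6 names stood on 1. The names fell into 4 groups. A protein gene was joined with a small RNA in 27 models, at least a pair of names from the same gene or family was joined in 10, and different protein genes in 32. In the other 85 models at least 1 name was a bare accession or a LOC number, so the kind of merger could not be read from the names. Of the names, 23 also stood on other models of the table, 16 of them small RNAs and 7 names of proteins, and 19 merged models carried such a name.

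For the pairs of different protein genes, the order of genes in the RefSeq annotation of a later cattle assembly (ARS-UCD2.0) was used to ask whether the joined genes are neighbours. Both genes were found in 31 of the 32 models, and in 25 of these no coding gene stood between them. In 3 further models 1 coding gene stood between the joined genes, and in the last 3 there were more. The annotated genes themselves overlapped in 2 models: GDPD3/MAPK3, of a lipid phosphodiesterase and the signalling kinase ERK1, and DCA11/FITM1, of an adaptor of ubiquitin ligases and a protein of lipid droplet formation. The widest gap in gene order was that of ARFRP/GATA5, a small GTPase of the Golgi and a transcription factor, with 30 coding genes between them. Of the small RNAs that could be placed together with their protein gene, 6 of 7 lay inside it. The exception was bta-mir-658 with ANR54, an ankyrin repeat protein. Neither the table nor the RefSeq list gives a strand, so overlapping and antisense genes could not be separated.

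The span listed for a merged model had a median of 35.8 kb on btau4.0, the assembly of the table, with a lower quartile of 15.3 kb and an upper quartile of 94.9 kb. The 11396 models with 1 name above 0 in any library had a median of 27.2 kb. A listed span is that of a whole stretch of connected reads and is often repeated on several models. It was shared with at least 1 other model for 88 merged models (57.1%), against 24.4% of models with 1 name. The 66 merged models with a span of their own had a median of 25.4 kb, against 19.9 kb for 8615 models with 1 name and their own span. Among shared spans the order was the opposite, with a median of 64.5 kb for merged models and 77.7 kb for models with 1 name. The shared spans held a median of 3 models and at most 43, and the merged model was the most abundant of its span in 61 of 88 cases. That share was not computed for models with 1 name, so the count has no background.

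**Figure D1:**
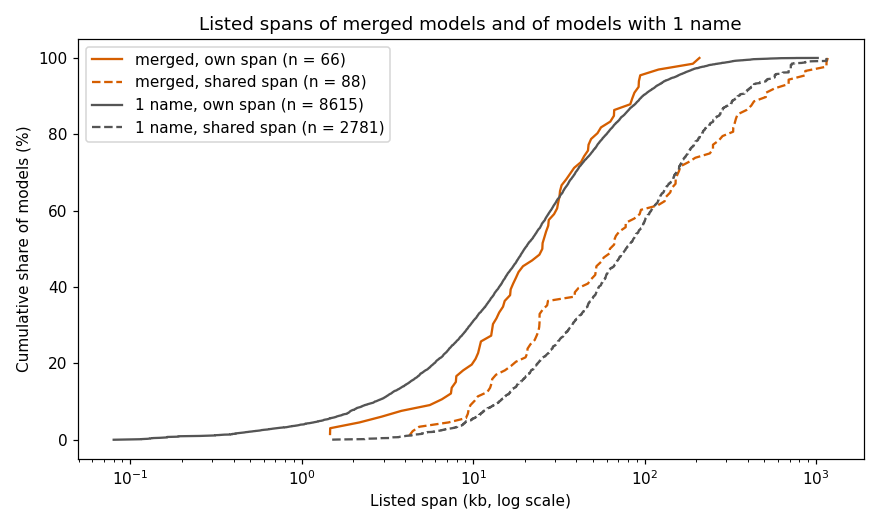
Cumulative share of models (%, vertical axis) up to a given listed span (kb, log scale, horizontal axis), for merged models and for models with 1 name, split by whether the span is shared with another model. The median of merged models lies to the right of that of models with 1 name among own spans (25.4 against 19.9 kb) and to the left of it among shared spans (64.5 against 77.7 kb).

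Of the 38 merged models listed at more than 100 kb, 3 had a span of their own. The widest, LOC617079/LOC617150 on chromosome 12 from 69341097 to 70511448, spanned 1170.4 kb with 8 models. ARFRP/GATA5 and LIME1/ZGPAT, the latter of a T cell signalling adaptor and a zinc finger repressor, were listed at the same 1150.1 kb on chromosome 13 from 54710905 to 55860966, which holds 43 models. These widths are those of the stretch and not of the joined genes. The next in width were A6QPV3/GBP6/LOC514143/LOC533818/LOC781225/LOC781675, the model with the most names, and LOC511531/Q0II27, both at 865 kb of chromosome 3. GBP6 belongs to the guanylate-binding proteins, GTPases induced by interferon whose genes stand in tandem. A7YWH4/O46784/Q08D78/Q3YFG2 and ABCF1/bta-mir-877 shared 692 kb of chromosome 23, which holds 40 models, and LZTR1/Q2KJ59, which holds an adaptor of a ubiquitin ligase, was listed at 574 kb on chromosome 17.

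The narrow end was held mostly by models with small RNAs. METTL12/SNORA57, of a mitochondrial methyltransferase and a small nucleolar RNA, was the narrowest at 1.46 kb on chromosome 29, followed by A6QQK3/LOC782418 at 1.47 kb. C10/U7 spanned 2.17 kb, 7SK/MOCS3 2.92 kb and A5PK67/bta-mir-147 3.81 kb. The ribosomal protein models RS8/SNORD46, RL27A/SNORA3 and RL4/SNORD18 spanned 4.25, 4.44 and 4.84 kb. Models of a protein gene with a small RNA had a median span of 19.5 kb, different protein genes 27.3 kb, accession or LOC models 51.5 kb and models of the same gene or family 54.8 kb.

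Merged models stood on 26 chromosomes. Chromosome 18 held the most, 16 models or 1.8% of its models above 0, and chromosome 23, which carries the MHC, held 12 or 2.29%. By their listed spans, 38 merged models lay within 100 kb of another, in 16 clusters. Of these models, 12 shared a listed span with another merged model, so the distance between their genes is unknown. No such share was computed for models with a single name, so the count has no background. The largest clusters had 4 models each. On chromosome 10, from 21225612 to 21309791, CHM4A/Q32PA3, A4IFB8/TM9S1, A6QNU0/Q58CQ1 and DCA11/FITM1 followed each other over 84.2 kb. On chromosome 29, from 42684691 to 42837630, METTL12/SNORA57, A1L571/TMEM179B, NXF1/TM223 and U2/WDR74 lay within 153 kb.

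Merged models were listed at high levels. Their median was 336 FPKM for Holstein, 363 for Jersey and 504 for Cholistani, against 99.7, 103 and 108 for models with 1 name, a ratio of 3.37, 3.53 and 4.68. The interquartile range of merged models was 172 to 869 in Holstein, 192 to 908 in Jersey and 213 to 1288 in Cholistani. Of the 154 models, 104 (67.5%) had a mean level above 226 FPKM, the upper quartile of all models above 0. Among models with a single gene symbol or entry name that share was 29.5%. The value of a merged model covers all its joined genes, and the joining was done on the same reads. Merged models and models with 1 name are therefore not like for like, and how much of the difference comes from this was not tested. The 66 merged models with their own span had lower medians than those with a shared span, at 246, 270.4 and 411 FPKM (Holstein, Jersey and Cholistani in turn) against 420.2, 459 and 567. Of the summed FPKM, merged models took 4.19% for Holstein, 4.11% for Jersey and 4.40% for Cholistani. The 3 most abundant of each library, which were not the same models in all of them, held 30.9%, 33.6% and 44.5% of that share.

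Nearly all merged models were found in every library. Holstein had 152 of them above 0, Jersey 153 and Cholistani 154, and 152 (98.7%) were above 0 in all 3. Of models with 1 name, 90.7% were above 0 in all 3. PYRD2/bta-mir-1287, of an oxidoreductase and a microRNA, was the only merged model found in a single library. It was listed at 0 in Holstein and Jersey and at 7.84 FPKM in Cholistani, the lowest level above 0 that met the rule. Just outside the rule stood FLNC/bta-mir-2422, of a filamin of muscle, and CACNG8/bta-mir-935, of a calcium channel subunit of brain, both listed at 0 in all libraries.

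**Figure D2:**
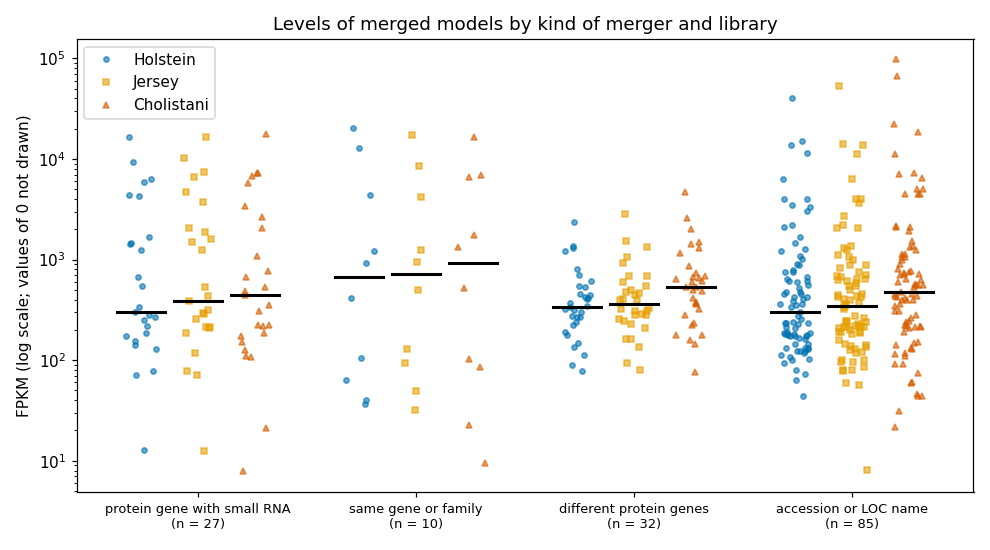
FPKM (log scale, vertical axis) of each merged model in each library, by kind of merger; points are models, the horizontal bars are medians over all models of the group, and values of 0 are not drawn. As deposited, the Cholistani median is the highest of the 3 in every group, for example 536 FPKM against 339 in Holstein and 360.3 in Jersey for different protein genes. After rescaling to equal library sums, the median log2 fold of Cholistani against Holstein was negative in every group, for example -0.11 for different protein genes.

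The most abundant merged models include several whose names are bare accessions and are described by level alone. A2VDX2/HB21/P79466/Q30313, on chromosome 23 from 26180419 to 26430789, was named for an MHC class II beta chain, which presents peptides to helper T cells. It had 40227 FPKM for Holstein, 52906 for Jersey and 66586 for Cholistani, and its neighbour in the same span, A5PJ88/A6H6Y1, had 11556, 11285 and 11214 FPKM. The first rose in level from Holstein to Jersey to Cholistani, a rank that ended with Jersey above Cholistani after rescaling to equal sums, whereas the second was nearly level. LYSC1/LYSCN, of lysozymes that break bacterial cell walls, had 20103, 17425 and 16551 FPKM in the same order of libraries. MYL6/Q148H2, of an essential light chain of myosin, had 14919, 13703 and 18672 FPKM. ML12B/MYL9, of regulatory light chains of myosin, had 4409, 4227 and 6604 FPKM. These cytoskeletal models were within 2-fold among the libraries. The MYL9 name was found in RefSeq on chromosome 13, whereas the model lies on chromosome 24. Q862X7/RHOA, of the GTPase that organizes actin fibres, had 4029.7, 4026 and 6444 FPKM, and A6QPT3/GIMAP1, of a GTPase of lymphocytes, had 3363, 3952 and 4968 FPKM.

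HBBF/HBB/HBE4, of adult, fetal and embryonic beta globins, the oxygen carriers of red cells, had 12696 FPKM for Holstein, 8495 for Jersey and 6952 for Cholistani. It lies on chromosome 15 from 47809667 to 47887216, and the count of coding genes between its joined genes in RefSeq was 2. The level was highest in Holstein and lowest in Cholistani, a ratio of 0.548. The HBBF name also stood on another model of chromosome 15, from 47899774 to 47901388. It had 156, 116 and 28.8 FPKM, in the same order as the merged model. Of the 4 red cell markers looked for, HBA alone was found under its own name. Its values were low, at 0, 11.5 and 69.3 FPKM, and in the opposite order. Red cells in the pools were not counted, and fewer cells of a type cannot be told apart from less RNA per cell in any comparison here.

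Of the 29 markers of blood cell types, 13 were found by name. Summed levels were 4662 FPKM for Holstein, 4651 for Jersey and 9757 for Cholistani for 4 of 5 T cell markers, and 6246, 7672 and 16017 for 2 of 4 B cell markers. The sums were 1182, 939 and 3159 for 3 of 5 neutrophil markers, 342, 237 and 398 for 1 of 3 monocyte markers, and 906, 1043 and 811 for 2 of 4 platelet markers. None of the 4 general leukocyte markers was found by name. Markers of lymphocytes and neutrophils were thus also highest in the Cholistani library, and their part in the differences below was not tested. The FPKM of all models summed to 5949765 for Holstein, 6288105 for Jersey and 9518432 for Cholistani.

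The 27 models of a protein gene with a small RNA comprised 12 with small nucleolar RNAs, 10 with microRNAs and 5 with 7SK, 5S, U2 or U7 RNA. Those with small nucleolar RNAs were the most abundant, with medians of 1445 FPKM for Holstein, 1785 for Jersey and 1864 for Cholistani. Models with microRNAs had medians of 186, 214 and 201 FPKM. Among the former, 4 were ribosomal proteins. RS8/SNORD46 had 16604, 16701 and 17728 FPKM (Holstein, Jersey and Cholistani in turn), RL4/SNORD18 had 6372, 7450.1 and 7329.9, and RL3/snoU82P had 4333, 4726 and 7279.6. As deposited, RL27A/SNORA3 was the one that was lowest in Cholistani (RS8/SNORD46 and RL4/SNORD18 were so too after rescaling), at 9242, 10158 and 5756 FPKM. Q861S4/SNORD102 had 5925, 6634 and 6800.3 FPKM. The nucleolar proteins NCL and NOP56, which build ribosomes, were found as NCL/SNORD20, at 1424, 1490.2 and 1095 FPKM, and NOP56/SNORD56, at 281, 296 and 350.2. IF4A2/SNORA4/SNORA63/SNORA81, of a helicase that unwinds messenger RNA at the start of translation, held 3 small nucleolar RNAs and had 1465, 2079 and 2634 FPKM. As deposited, no model with a small nucleolar RNA differed by 2-fold between any libraries. Of all models with at least 50 FPKM, 16.6% passed 2-fold on the Cholistani side against Holstein and 7.50% on the other. After rescaling, the Cholistani value of 2 of the 12 models lay 2-fold below Holstein, and that of 3 below Jersey. The rescaled shares of all models on that side were 27.5% and 26.2%. The 12 models are too few to be read against these shares.

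Models with microRNAs ranged from 0 in Holstein and Jersey for PYRD2/bta-mir-1287 to 4305 FPKM for ATP5E/bta-mir-220e in Holstein. DGCR8/bta-mir-1306, of the protein that recognizes microRNA precursors, had 154, 212 and 185 FPKM (Holstein, Jersey and Cholistani in turn). ABCF1/bta-mir-877, of a factor of translation initiation, had 269, 287 and 305 FPKM, and NRD1/bta-mir-761, of a metalloprotease, had 218, 216 and 218. These 3 models were within 2-fold across the libraries. CHPF2/bta-mir-671, of an enzyme of chondroitin synthesis, had 71.4, 70.6 and 127 FPKM. SLC22A4/bta-mir-2457, of a transporter of organic cations, had 12.9, 12.5 and 21.2. The table held 2883 models named for a small RNA alone, of which 153 (5.31%) were above 0 in any library.

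**Figure D3:**
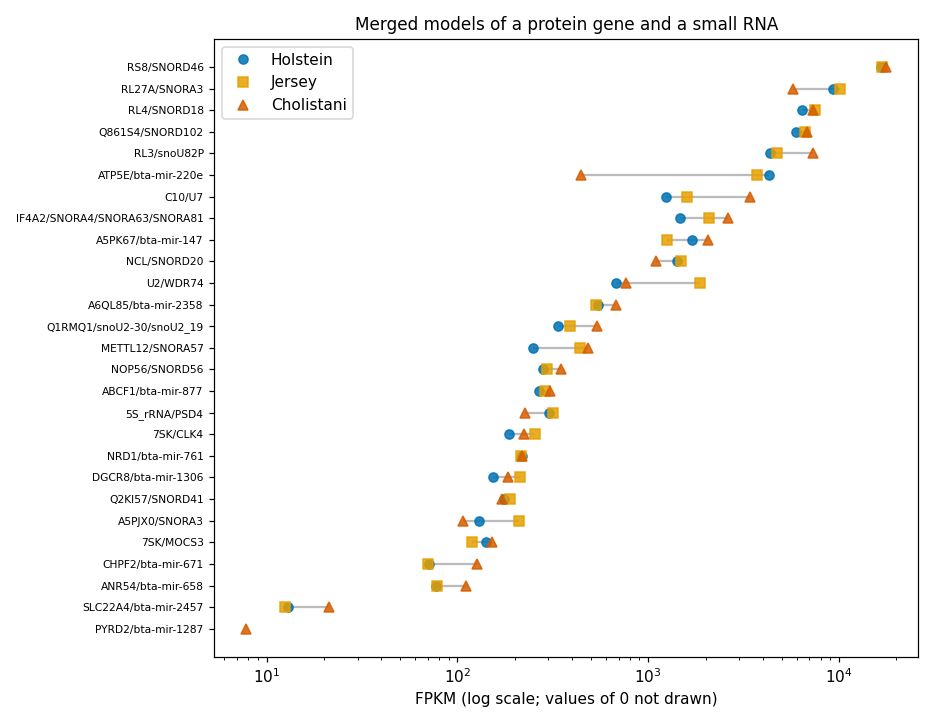
FPKM (log scale, horizontal axis) of the 27 merged models of a protein gene and a small RNA in the 3 libraries, ordered by mean level; each row is a model, the grey line joins its values and values of 0 are not drawn. Most rows are narrow, with exceptions for ATP5E/bta-mir-220e, low in Cholistani (446 FPKM), C10/U7, high in Cholistani (3416 FPKM), and U2/WDR74, high in Jersey (1861 FPKM).

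Between Cholistani and Holstein, folds were taken as the log2 ratio of FPKM + 1, and a model was counted at a difference of at least 2-fold. Of the 154 merged models, 21 were higher in Cholistani (13.6%, against 19.7% of all 15284 models with values in every library) and 10 were lower (6.49%, against 13.7% of all). The 2-fold share of merged models was thus below the background in both directions. Among models that reached 50 FPKM in at least 1 of these libraries the gap was smaller: 20 of 150 merged models were higher (13.3%, against 16.6% of all such models) and 9 were lower (6%, against 7.50%). The median log2 fold was 0.47, against 0.15 over all models and 0.27 over all models with at least 50 FPKM. When each library was rescaled to the mean sum of the 3, this median turned to -0.21 and that of all models to -0.43, with 7 merged models higher and 23 lower (backgrounds of 11.6% and 27.5%).

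Between Cholistani and Jersey, 20 merged models were higher in Cholistani (13%, against 17.2% of all models) and 8 were lower (5.19%, against 14.2%). At 50 FPKM or more in at least 1 of these libraries, 19 of 151 were higher (12.6%, against 14.1%) and 7 were lower (4.64%, against 6.89%). The median log2 fold was 0.32, against 0.12 over all models, and it turned to -0.28 after rescaling, against -0.41 over all. Between Jersey and Holstein, 4 were higher in Jersey (2.6%, against 7.99%) and 1 was lower (0.649%, against 4.70%), with a median of 0.08 that became 0.00 after rescaling. With at least 50 FPKM, 3 of 149 were higher (2.01%, against 3.30%) and 1 was lower (0.671%, against 1.28%). The comparisons with Cholistani share that library and are not independent. Over merged models above 0 in both libraries, Pearson's r of log2(FPKM + 1) was 0.987 for Jersey with Holstein (152 models), 0.924 for Cholistani with Holstein (152) and 0.866 for Cholistani with Jersey (153), with models of the same span among the points. The last value rests on GROB/Q2KIE5, which the comparisons with Holstein leave out. Over the 152 models above 0 in all 3 libraries, r of Cholistani with Jersey was 0.926.

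**Figure D4:**
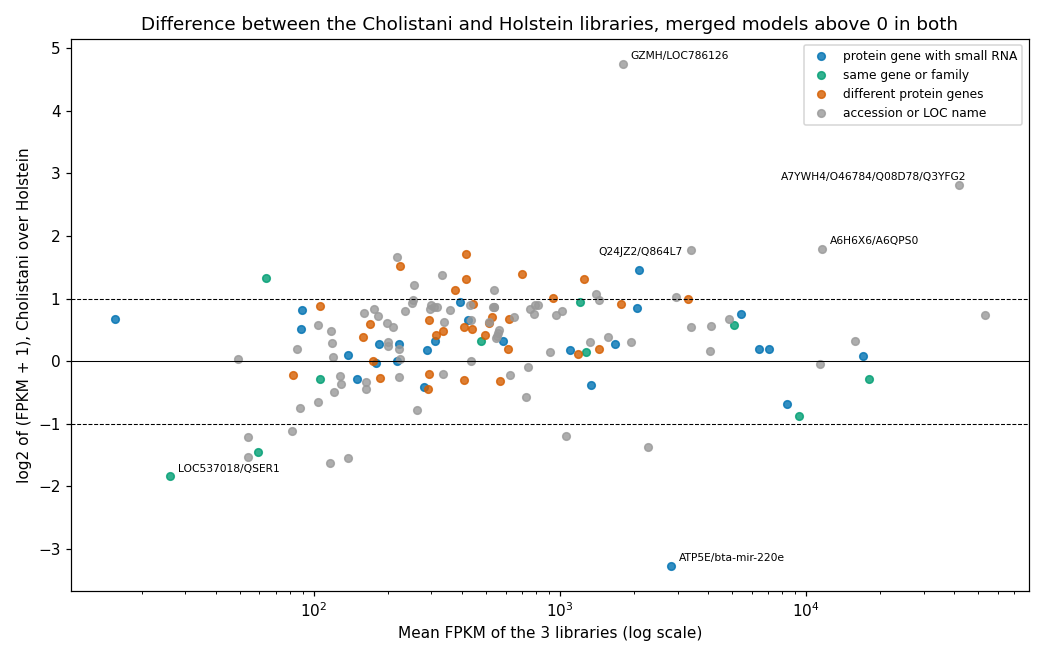
log2 ratio of FPKM + 1 of Cholistani over Holstein (vertical axis) against the mean FPKM of the 3 libraries (log scale, horizontal axis) for the 152 merged models above 0 in both libraries, coloured by kind of merger; dashed lines mark 2-fold. Most points lie between the dashed lines and slightly above 0 as deposited (a median of 0.47 over all 154), with GZMH/LOC786126 far above and ATP5E/bta-mir-220e far below.

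As deposited, 7 of 32 models of different protein genes passed 2-fold on the Cholistani side against Holstein and 0 on the other. The shares of all models were 19.7% and 13.7%, and those of models with at least 50 FPKM were 16.6% and 7.50%. All 32 models exceeded 50 FPKM in every library, so the latter shares are the closer background. Whether the counts depart from these shares was not tested. The median log2 fold of the 32 models, 0.57, turned to -0.11 after rescaling, with 1 higher and 1 lower. Protein genes with small RNAs had 2 higher and 1 lower of 27 (a median of 0.27, or -0.41 rescaled), and models of the same gene or family had 1 higher and 2 lower of 10 (-0.07, or -0.75 rescaled). Accession or LOC models had 11 higher and 7 lower of 85, with a median of 0.55, or -0.13 rescaled. Whether these groups differ from each other was not tested.

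Of the 10 highest in Cholistani against Holstein, GROB/Q2KIE5 and GZMH/LOC786126 stood farthest apart. GROB/Q2KIE5, on chromosome 6 from 92060259 to 92073929, was named for a chemokine that attracts neutrophils. Its Holstein value was listed at 0. Jersey had 8.16 FPKM and Cholistani 7171, which is 879 times the Jersey value. GZMH/LOC786126, on chromosome 21 from 34899211 to 34906704, held a granzyme, a protease that cytotoxic lymphocytes release into target cells. It had 184 FPKM for Holstein, 213 for Jersey and 4992 for Cholistani, which was 27.1 times the Holstein and 23.4 times the Jersey value (log2 folds of 4.75 and 4.54). Both models had a span of their own, and in both the Holstein and Jersey values lay far below that of Cholistani.

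A7YWH4/O46784/Q08D78/Q3YFG2, in the MHC stretch of chromosome 23 from 27748495 to 28440296, had 13757 FPKM for Holstein, 14219 for Jersey and 97402 for Cholistani. It was 7.08 times as high in Cholistani as in Holstein and the most abundant of the 40 models of its span. ABCF1/bta-mir-877 of the same span did not share this difference, at a ratio of 1.13. The names of the model are bare accessions and no gene was assigned to it. The same holds for A6H6X6/A6QPS0 on chromosome 4, at 6375, 6247 and 22262 FPKM, and Q24JZ2/Q864L7 on chromosome 11, at 2089, 992 and 7152 FPKM. The latter was the 1 merged model lower in Jersey than in Holstein by 2-fold, at a ratio of 0.475, and was 7.21 times as high in Cholistani as in Jersey.

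**Figure D5:**
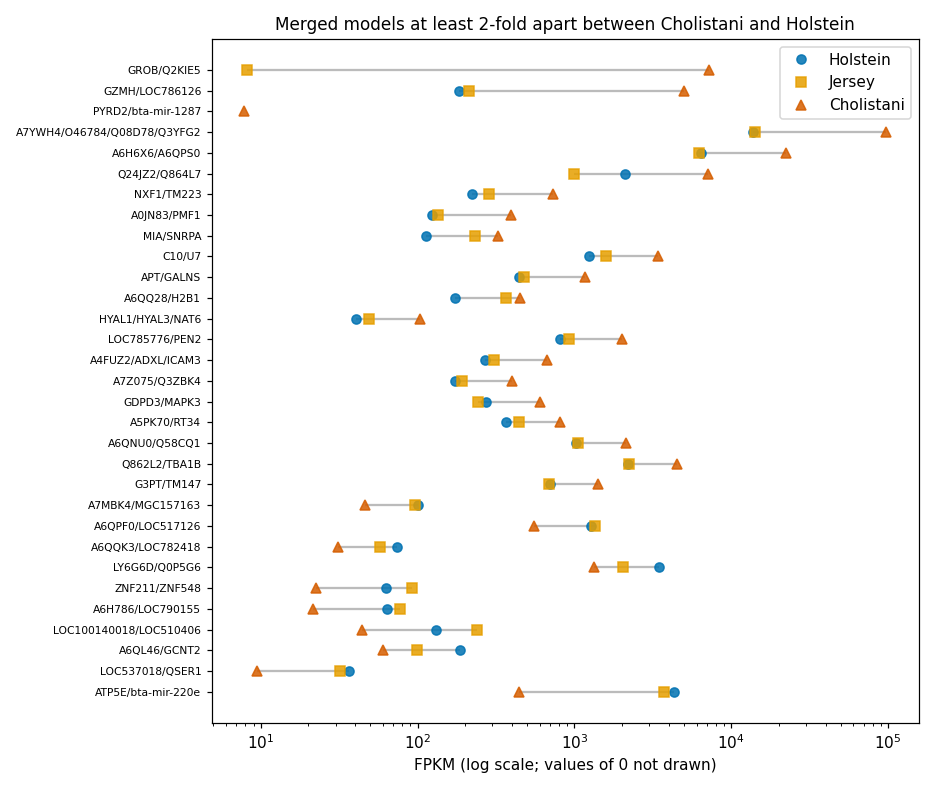
FPKM (log scale, horizontal axis) in the 3 libraries of the merged models at least 2-fold apart between Cholistani and Holstein, the 21 higher in Cholistani above the 10 lower ones; the grey line joins the values of a model and values of 0 are not drawn. In most rows the Holstein and Jersey points lie close together and the Cholistani point apart, as for GZMH/LOC786126 (184, 213 and 4992 FPKM).

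The other 5 of the 10 highest were smaller in fold. NXF1/TM223, on chromosome 29 from 42774947 to 42799316, joined the main export receptor of messenger RNA with a transmembrane protein. It had 223 FPKM for Holstein, 284 for Jersey and 733 for Cholistani (3.29 times Holstein), and A1L571/TMEM179B, listed in the same span, had 124, 142 and 212. A0JN83/PMF1, of a protein of the kinetochore, had 124, 135 and 393 FPKM (3.17 times Holstein). MIA/SNRPA, of a secreted cartilage protein and a protein of the U1 splicing particle, had 113, 231 and 324. Jersey stood between the others here, 2.05 times Holstein, and after rescaling Cholistani fell slightly below Jersey. C10/U7, with the RNA that trims histone messages, had 1239, 1593 and 3416 FPKM (2.76 times Holstein). APT/GALNS, of an enzyme of adenine salvage and a lysosomal sulfatase, had 443, 475 and 1173 FPKM (2.65 times Holstein). Of these 5 models, NXF1/TM223 alone remained 2-fold higher than Holstein after rescaling, at a log2 fold of 1.04.

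The lowest in Cholistani was ATP5E/bta-mir-220e, on chromosome 13 from 58074083 to 58086997, which holds the epsilon subunit of mitochondrial ATP synthase. It had 4305 FPKM for Holstein, 3729.8 for Jersey and 446 for Cholistani, a ratio of 0.104 to Holstein and 0.12 to Jersey. The ATP5E name also stood on a pair of models of chromosome 22, from 35770984 to 35974363 and from 35979709 to 35980100, which were highest in Cholistani as deposited and lowest there after rescaling. The former had 1128, 1052 and 1489 FPKM and the latter 1153, 1073 and 1515, so the merged model is not the whole of what was listed for this gene, and how the counting divided reads among these copies is uncertain. LOC100140018/LOC510406 on chromosome 3, the latter name listed as CYP2J30 in RefSeq, had 131, 240.2 and 44.2 FPKM. A6H786/LOC790155 on the same chromosome had 63.7, 77.2 and 21.5. ZNF211/ZNF548, of zinc finger repressors that stand in a large tandem array on chromosome 18, had 62.9, 92.7 and 22.5 FPKM. In these models, too, Cholistani was the library that stood apart.

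A6QL46/GCNT2, of an enzyme that branches the sugar chains of the I blood group, had 187 FPKM for Holstein, 99.6 for Jersey and 59.8 for Cholistani. LY6G6D/Q0P5G6, of a surface protein encoded in the MHC class III region, had 3467, 2049 and 1331 FPKM. In both of these Holstein was highest and Jersey stood between the others. A6QPF0/LOC517126, the latter name listed as FCRL5 in RefSeq, had 1269.6, 1348 and 553 FPKM. A7MBK4/MGC157163 had 101, 96.2 and 46, and A6QQK3/LOC782418 had 73.6, 57.2 and 31.1. LOC537018/QSER1, whose names are those of the same gene by its identifier in RefSeq, had 36.7, 31.8 and 9.54 FPKM and did not reach 50 FPKM in any library.

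Between Jersey and Holstein, U2/WDR74 had the largest difference among merged models with at least 50 FPKM. It joins the RNA of a splicing particle with a protein of ribosome assembly and had 675 FPKM for Holstein, 1861 for Jersey and 765 for Cholistani, a Jersey to Holstein ratio of 2.76. Here Jersey was the library that stood apart. A6QQ28/H2B1, of a histone, had 172, 368 and 450.1 FPKM, and METTL12/SNORA57 had 250.4, 438 and 485. In both, Holstein was lowest as deposited. The names of the histone model also stood on other models, A6QQ28 on 3 and H2B1 on 8. The most abundant of these, A6QQ28 on chromosome 3, had 912, 973 and 780 FPKM and was lowest in Cholistani. The remaining models named A6QQ28 were lowest in Holstein, and the merged model is not the whole of what was listed for this histone. A0A2V3/CREBBP, of a histone acetyltransferase, had 359.9, 213 and 209 FPKM, and Q2KIP1/TFRC, of the receptor that takes up iron, had 123, 80.7 and 151.

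Other kinds of genes were met in few merged models, and their names were matched by patterns. Each kind holds too few models to be read against the shares of all models past 2-fold, 19.7% higher and 13.7% lower in Cholistani than in Holstein. Solute carriers were in 6 models, of which 0 were 2-fold apart between any libraries as deposited. After rescaling LOC509911/MOT1, of a carrier of lactate, was lower in Cholistani than in Holstein at a log2 fold of -1.03. Of these, Q52UL7/S38A2, a carrier of glutamine, had 759, 750 and 711 FPKM (Holstein, Jersey and Cholistani in turn). Q2KIW4/SLC12A4, a cotransporter of potassium and chloride, had 256, 358 and 395, and Q1JP62/SLC7A6, a carrier of amino acids, had 214, 234 and 219.6. The pattern for kinases and phosphatases matched 4 models and missed others, such as 7SK/CLK4 and PASK/Q3MHX4. Of the matched models, GDPD3/MAPK3 alone was past 2-fold against Holstein, at 274, 243 and 604 FPKM. That difference ended at a log2 fold of 0.46 after rescaling. CSK2B/LY6G5B, of a subunit of casein kinase, had 343, 328 and 652 FPKM, and P85B/Q0P579, of a subunit of phosphoinositide kinase, had 233, 264 and 426.

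RNA processing and translation were represented by RBM14/RBM4, DD19A/Q2YDF3, EFTS/F119B and models given above. RBM14/RBM4, of RNA-binding proteins from neighbouring genes, had 915, 943 and 1749.8 FPKM (Holstein, Jersey and Cholistani in turn). DD19A/Q2YDF3, of an RNA helicase, had 426, 394 and 775, and EFTS/F119B, of a mitochondrial elongation factor, had 147, 136 and 223. All were highest in Cholistani as deposited, and EFTS/F119B fell below Holstein after rescaling. The mitochondrial ribosome was met in A5PK70/RT34, at 365, 444 and 808 FPKM, and CCDC142/RM53, at 134, 164 and 176. Among immune genes, INAR2/Q58CP3, of a chain of the interferon receptor, had 473, 339 and 728 FPKM, 2.15 times as high in Cholistani as in Jersey, a log2 fold of 1.10 that became 0.50 after rescaling. The guanylate-binding protein model with 6 names had 667, 635 and 574 FPKM. Histone model H2B1N/H2B1 had 414, 500.1 and 516. The zinc finger model Q0VCY4/Q2NL04/ZBTB22 had 3054, 2702 and 4443 FPKM, and Q17R08/ZN227 had 128, 146 and 90.8.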

How the data were processed

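RNA of pooled white blood cells was sequenced as 1 library for each of 3 cattle breeds. Per the submitters' processing notes and the study's methods, the authors used TopHat v1.0.14 and Bowtie v0.12.7 to place reads on btau4.0, and Cufflinks v0.9.3 to assemble and quantify transcripts. The deposited FPKM per gene model, already normalized to upper quartiles and adjusted for sequence bias by the authors, were taken unchanged. Joining of transcripts into shared models was done by their pipeline and fixes which genes have a single value. The study gives fragment totals per library, which were not used here. The table does not give the fragments behind each model, so no counting interval was computed.

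Starts in the table were read as 0-based and raised by 1. Of 5 models with missing Holstein and Jersey values none was a merged model, and all 5 were left out of folds and library sums. Folds were log2 ratios of FPKM + 1, which understate differences of low models, and were counted at 2-fold. No test was run. A minimum of 50 FPKM for the second background, and correlations over models above 0 in all 3 libraries, were added after seeing the data.

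Of the 325 names, 172 were matched to RefSeq genes, used for names and gene order only; bare accessions were not matched. Models were named by rule: the 15 most abundant, the 10 highest and 10 lowest folds between Cholistani and Holstein and 5 of each in the other comparisons (at least 50 FPKM), the 8 widest and 8 narrowest spans, the 5 with most names, those in 1 library, and the 3 most abundant of each kind of gene. LOC537018/QSER1, DGCR8, NRD1, CHPF2, SLC22A4, RL3, NCL, NOP56 and the other models of the clusters were named after their values were seen. The members and lists were chosen with earlier results of these data known.

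The alternatives changed the pseudocount (0.1 and 10), set a minimum of 10 FPKM or detection at 1 and 10 FPKM, rescaled to the mean library sum, centred the folds, or took subsets of models by kind and span. Scripts ran in Python 3.11.15 with pandas 2.3.3, numpy 2.4.6 and matplotlib 3.10.9 and were tested on simulated data.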

Additional observations from a re-analysis of the deposited data

How the results depend on the processing

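Of 88 alternative values, 63 stayed within 1.5 times of the reported count, or within the smaller bounds set for medians, 23 moved and 2 reversed. Rescaling to the mean library sum gave 7 merged models higher and 23 lower between Cholistani and Holstein with a median log2 fold of -0.21, and 6 higher, 22 lower and -0.28 between Cholistani and Jersey, so both medians reversed. Centring folds on the median of models with at least 10 FPKM gave medians of 0.25 and 0.15, with 10 higher in the latter comparison. Among models of different protein genes, which are fewer, 7 were higher and 0 lower against Holstein, 6 and 0 against Jersey (a median of 0.46), and 1 and 0 between Jersey and Holstein. Among the 66 models with their own span, the counts were 10 and 2 (a median of 0.61), 11 and 1 (0.47), and 2 and 0. A pseudocount of 10 FPKM left 2 higher in Jersey than in Holstein. The counts of detected models and the ratios of median span and level kept their size under every alternative run.

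No paired analysis was possible because each breed has 1 library, and no fit leaves out a replicate. The cause of the different library sums was not tested. The fragments behind each value, the share of each joined gene and the strand are unknown, and a span shared by several models is not that of the merged model alone.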

Other observations

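Of the 159 models with several names, 3 were left out by the rule although above 0. The mitochondrial models ATP6/ATP8/COX3 and NU4LM/NU4M, of subunits of ATP synthase, cytochrome oxidase and complex I read from a shared transcript of the mitochondrial genome, had 157891, 168191 and 268515 FPKM and 34529, 34071 and 46710.4 FPKM (Holstein, Jersey and Cholistani in turn). The MHC class I model HA1B/LOC614091/Q3MHE9/Q3YFG6, on chromosome 23 from 28483925 to 28659544, had 84948, 77462 and 328475 FPKM. In each library the value of this MHC class I model lay above those of all 154 models that met the rule.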
